A study of Mus musculus with 8 samples.

Results

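The G1 regulators described here are the 10 genes Ccnd1, Ccnd2, Ccnd3, Cdk4, Cdk6, Cdkn2a, Cdkn2b, Cdkn2c, Cdkn1b and Rb1, out of the 8488 genes that could be tested. They were chosen by symbol, and every probe carrying 1 of those symbols was read. The annotation held 18 probes for 9 of the 10 genes and none for Cdk4. The single Cdk6 probe lay above background on 0 of 8 arrays, so 8 genes were tested.

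The RNA came from mouse embryonic fibroblasts (MEFs), the adherent cells grown from embryos after removal of the head and visceral organs, taken at E12.5 on the C57BL6J strain. All 3 lines, cKO1, cKO2 and pcKO1, carried the H3f3b Fl/Fl genotype, with both copies of this gene for the histone variant H3.3 flanked by loxP sites. The GFP arm received a retrovirus with IRES-GFP, and the Cre arm received CRE-IRES-GFP, in which Cre recombinase cuts out the floxed coding exons. H3f3a, the other gene for H3.3, was left intact in every culture. Each arm held 4 arrays, 1 each for cKO1 and pcKO1 and a duplicate pair for cKO2, which was averaged, so that n = 3 lines. Each line was taken as 1 culture per arm, since the study's methods call the conditional samples analytical duplicates. Its results text speaks of biological replicates, so whether the cKO2 pair came from 1 culture is not settled. The p-values compare these cultures and not embryos, and whether the lines came from separate embryos is not stated in the labels. A second deposited table, used for the detection filter, names its cultures MEF D, MEF G1, MEF G2 and MEF D pooled, without tying them to the line names, so some of the 3 lines may share embryos.

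D-type cyclins bind CDK4 and CDK6 and, in response to growth factors, start the phosphorylation of the retinoblastoma protein, Rb. Phosphorylated Rb releases the E2F factors, which switch on the genes for DNA replication. The INK4 proteins p16INK4a, p15INK4b and p18INK4c block CDK4 and CDK6 directly, and in cultured MEFs the Cdkn2a locus is known for rising as the cells approach senescence. The locus also encodes, from a separate start and in another reading frame, p19ARF, which stabilises p53 by holding off Mdm2.

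The start sites of the Cdkn2a and Cdkn2b genes are shown because Cdkn2a has a pair of them and its detected probes did not report the lines alike, as described below. Both genes lie on the minus strand of chromosome 4. The windows run from 250 bases before to 50 bases after a start, read 5′ to 3′ (RefSeq, GRCm38.p6), and capitals mark each GGGCGG box or its complement CCGCCC. The upstream Cdkn2a start (chr4:89294570-89294869) held 3 boxes, the inner one (chr4:89282143-89282442) held 1, and Cdkn2b (chr4:89310983-89311282) held 1.
Cdkn2a upstream start: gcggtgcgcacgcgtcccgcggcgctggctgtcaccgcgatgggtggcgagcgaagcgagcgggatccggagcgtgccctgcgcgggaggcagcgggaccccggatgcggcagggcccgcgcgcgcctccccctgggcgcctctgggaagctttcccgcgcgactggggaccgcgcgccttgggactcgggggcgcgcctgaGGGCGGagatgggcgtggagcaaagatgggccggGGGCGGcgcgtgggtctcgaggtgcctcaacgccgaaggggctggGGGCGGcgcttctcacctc
Cdkn2a inner start: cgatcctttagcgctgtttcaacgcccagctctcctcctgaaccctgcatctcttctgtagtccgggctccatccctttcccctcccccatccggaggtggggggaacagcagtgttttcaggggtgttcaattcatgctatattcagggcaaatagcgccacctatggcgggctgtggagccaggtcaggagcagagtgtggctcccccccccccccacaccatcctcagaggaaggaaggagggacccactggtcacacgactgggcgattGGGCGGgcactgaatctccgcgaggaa
Cdkn2b: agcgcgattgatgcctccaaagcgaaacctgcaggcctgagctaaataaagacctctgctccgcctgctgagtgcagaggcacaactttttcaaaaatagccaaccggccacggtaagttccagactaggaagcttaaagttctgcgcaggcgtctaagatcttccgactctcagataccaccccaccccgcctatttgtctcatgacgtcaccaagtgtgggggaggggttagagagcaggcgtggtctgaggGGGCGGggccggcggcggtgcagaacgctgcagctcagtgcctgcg

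A GGGCGG box on either strand was present in 35.7% of 32851 such mouse windows. The upstream Cdkn2a window held 45 CG dinucleotides, a count that 98.4% of all windows did not exceed, against 12 in the inner window, 18 in the Cdkn2b window and a median of 7. Neither TTTCGCGC nor TTTGGCGC, letter strings of the E2F site, occurred on either strand in these 3 windows, and 0.813% of all windows held at least 1 of them. The TGACTCA string of the AP-1 site, held by 5.2% of windows, was also not among these letters. The files do not place the array probes along the gene, so neither Cdkn2a probe can be tied to either start.

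Levels below are log2 normalised intensities, on which probes that lay above background on no array sat at a median of 6.17, from 5.98 at the 5th to 6.42 at the 95th percentile. The targeted gene H3f3b read 12.05, 12.42, 12.62 and 11.94 in the GFP arm for cKO1, the cKO2 pair and pcKO1, and 6.73, 7.39, 7.42 and 9.77 in the Cre arm. Its probe lay above background on 4 GFP and 3 Cre arrays. The level with Cre was 34.6-fold lower in cKO2 and 4.50-fold lower in pcKO1. The 39.9-fold of cKO1 is limited by background, since 6.73 lies close to undetected probes, and over the lines the difference was -4.20 ± 0.51 (adjusted p = 0.188 in limma). Of the markers with a probe, those above background on at least 3 arrays were 9 of 9 for fibroblasts, 4 of 6 for cartilage, 4 of 7 neural, 2 of 8 macrophage, 2 of 7 skeletal muscle, 1 of 6 adipocyte, 1 of 5 epithelial, 0 of 7 endothelial and 0 of 4 erythroid. All 9 fibroblast markers differed between the lines by the line test, as 44.7% of all genes did. The list summed to 31989 to 39816 in cKO1, 53545 to 57285 in cKO2 and 59340 to 68260 in pcKO1. Line means in the order cKO1, cKO2, pcKO1 were 7.07, 8.62 and 13.37 for Thy1 and 6.44, 8.38 and 8.90 for the cartilage collagen Col2a1. Not every fibroblast marker followed the summed order. In the same order, Vim read 14.35, 13.99 and 14.04, S100a4 read 9.06, 7.01 and 9.42, and Col1a1 read 12.07, 13.36 and 13.04. Macrophage markers separated the lines too: by their brightest probe, 6 of the 8 were above background on 2 arrays only, and the summed level of the list was 587 to 593 in cKO1, 600 to 653 in cKO2 and 8183 to 10998 in pcKO1. The pcKO1 cultures read 10.92 and 10.58 for Fcer1g and 12.31 and 11.65 for Lyz2, against 5.96 to 6.55 on the other arrays, while Ptprc was detected on 0 arrays. In these bulk samples a change in the share of a cell type and a change in RNA per cell cannot be told apart, and the part of these marker differences in the results below was not tested.

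Between the lines, 6 of the 8 tested genes differed, namely Ccnd1, Ccnd3, Cdkn2a, Cdkn2b, Cdkn2c and Rb1, against 44.7% of all genes tested (limma F test over the 3 lines, adjusted p under 0.05). By the brightest probe of each gene, the pcKO1 line held the most cyclin D1 and cyclin D3 transcript. The cKO2 line held the least of the INK4 transcripts Cdkn2a and Cdkn2b, and cKO1 held the most Cdkn2c and the least Rb1. Cyclin D2 was level across the lines. Between Cre and GFP, 0 of the 8 passed the test, against 0% of all genes.

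**Figure D1:**
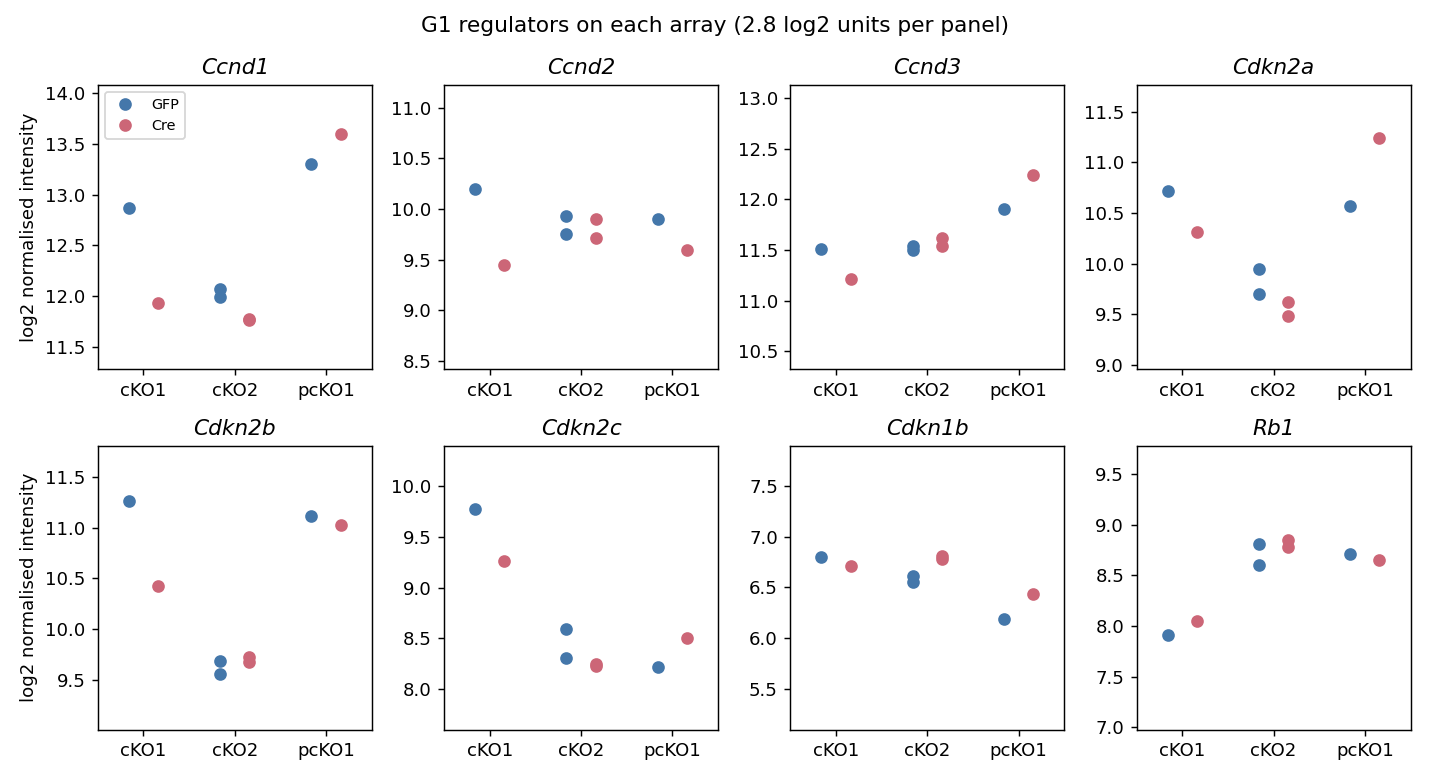
Log2 normalised intensity of the 8 tested G1 regulators on each of the 8 arrays, by line on the x axis, with GFP in blue and Cre in red; each panel spans the same 2.8 log2 units and the cKO2 duplicates are drawn apart. The 2 arrays of pcKO1 lie above the other 6 for Ccnd1 and Ccnd3, and the 4 arrays of cKO2 lie below the other 4 for Cdkn2a and Cdkn2b.

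Ccnd1 encodes cyclin D1, the D-type cyclin best known as a sensor of mitogens in fibroblasts. In the GFP arm it read 12.86 in cKO1, 12.07 and 11.99 in cKO2 and 13.31 in pcKO1, and in the Cre arm 11.93, 11.77, 11.77 and 13.60. The pcKO1 arrays stood above all others in both arms. Over both arms, pcKO1 exceeded cKO2 by 1.55 ± 0.24 (SE, log2), or 2.93-fold, with an adjusted p of 0.00414 in limma. It exceeded cKO1 by 1.05 ± 0.24, or 2.07-fold, with an adjusted p of 0.0151, and cKO2 and cKO1 differed by -0.50 ± 0.24, with an adjusted p of 0.144. All 3 Ccnd1 probes were detected on all arrays. The second probe gave the order of the brightest, with pcKO1 above cKO2 by 1.72 ± 0.22. The dimmest put cKO1 at 9.72, level with pcKO1 at 9.59, and cKO2 at 8.41, so that the excess of pcKO1 over cKO1 rests on 2 of the 3 probes.

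Ccnd2 encodes cyclin D2, and its single probe showed no line order. It read 10.20 in cKO1, 9.75 and 9.93 in cKO2 and 9.90 in pcKO1 with GFP, and 9.45, 9.71, 9.90 and 9.59 with Cre. The line means, 9.82, 9.82 and 9.75, differed by less than the arms of cKO1 did, and the F test gave an adjusted p of 0.932.

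Ccnd3 encodes cyclin D3. Its brightest probe read 11.51 in cKO1, 11.50 and 11.54 in cKO2 and 11.91 in pcKO1 with GFP, and 11.21, 11.54, 11.62 and 12.24 with Cre. By this probe pcKO1 exceeded cKO1 by 0.71 ± 0.17, or 1.64-fold, with an adjusted p of 0.0186, and cKO2 by 0.52 ± 0.17, with an adjusted p of 0.0661. The second probe reversed that order, with pcKO1 lowest at 7.90 against 8.28 for cKO1 and 8.36 for cKO2, and its own line test gave an adjusted p of 0.152. The rank of pcKO1 for cyclin D3 therefore depends on the probe.

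The kinase partners of these cyclins were hardly measured. The Cdk6 probe read between 6.07 and 6.66 on the 8 arrays, within or near the range of undetected probes. No level can be given for Cdk4.

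Cdkn2b encodes p15INK4b, an inhibitor induced by TGF-beta in epithelial cells. With GFP it read 11.26 in cKO1, 9.55 and 9.69 in cKO2 and 11.12 in pcKO1, and with Cre 10.43, 9.68, 9.72 and 11.03. All 4 cKO2 arrays lay below the other 4. The cKO2 line was 2.27-fold below cKO1, a difference of -1.18 ± 0.22 with an adjusted p of 0.00443, and 2.66-fold below pcKO1, with an adjusted p of 0.00428. The cKO1 and pcKO1 lines differed by 0.23 ± 0.22, which did not pass the test (adjusted p = 0.485).

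Cdkn2a, the neighbour of Cdkn2b, shared the low level in cKO2 and not the rest of the pattern. Its brightest probe read 10.72 in cKO1, 9.70 and 9.94 in cKO2 and 10.57 in pcKO1 with GFP, and 10.31, 9.63, 9.49 and 11.24 with Cre. By this probe cKO2 was 1.77-fold below cKO1 (adjusted p = 0.0332, and 0.0641 with median scaling, where the call is lost) and 2.32-fold below pcKO1 (adjusted p = 0.0129), and pcKO1 and cKO1 differed by 0.39 ± 0.25 (adjusted p = 0.287). The second probe was detected on all 8 arrays as well and read 10.42 in cKO1, 8.36 and 8.70 in cKO2 and 8.72 in pcKO1 with GFP, and 10.30, 8.22, 8.23 and 8.73 with Cre. Here only cKO1 was high. With each passing probe fitted alone, pcKO1 was 3.11-fold below cKO1 by this probe, a difference of -1.64 ± 0.17 with an adjusted p of 0.000394, and cKO2 was 3.96-fold below cKO1, with an adjusted p of 8.46e-05.

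The disagreement of the Cdkn2a probes was itself tested, by fitting the brightest minus the second-brightest probe of each of the 1950 genes with at least 2 passing probes, a test chosen after the values were seen. Between pcKO1 and cKO1 that difference changed by 2.02 ± 0.22, with an adjusted p of 0.000796, and between cKO2 and cKO1 by 1.16 ± 0.22, with an adjusted p of 0.0126. By level, cKO1 was thus high on both Cdkn2a probes and pcKO1 on the brightest alone. The cKO2 line was the lowest on both, though both probes were above background on all its arrays. Ccnd3 (adjusted p = 0.0036 over the lines) and Cdkn2c (adjusted p = 0.00617) also passed this test, whereas Ccnd1 (0.678, brightest against second) and Rb1 (0.0764) did not. Of all genes fitted this way, 23.5% passed, and of all probes fitted alone, 45.1% differed between the lines.

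**Figure D2:**
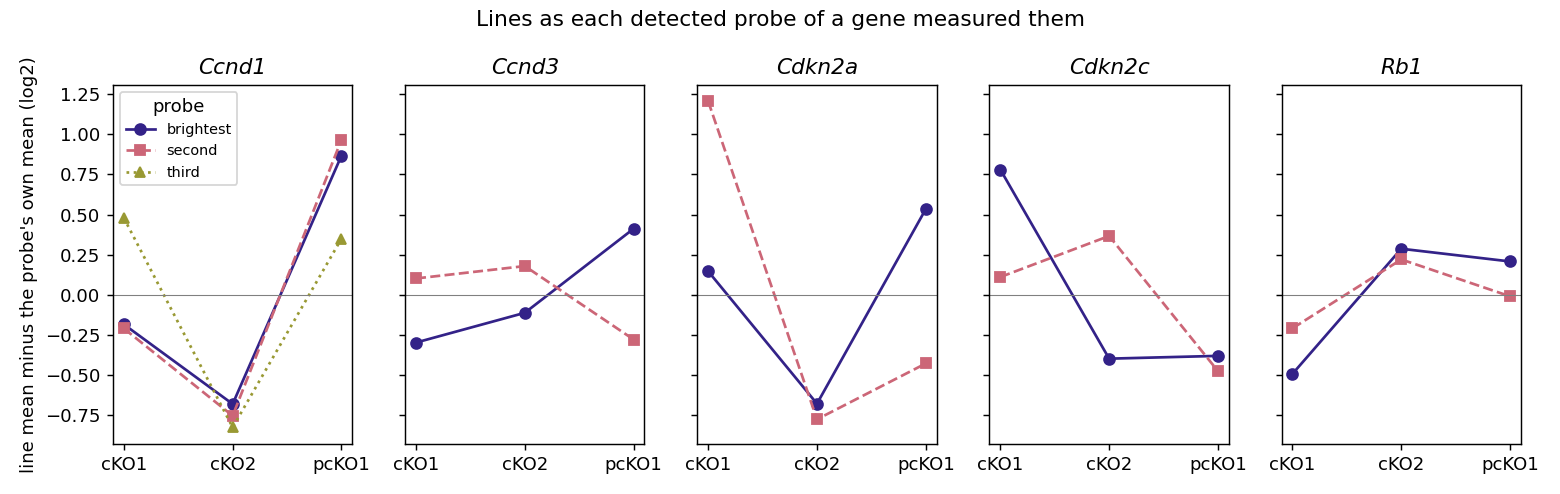
Mean level of each line minus the mean of the same probe over the 3 lines, in log2 units, for the 5 genes with more than 1 passing probe; lines of different colour and marker are the probes from brightest to dimmest. For Cdkn2a the pcKO1 point of the brightest probe lies above its mean and that of the second probe lies below, while both cKO2 points are low; the Ccnd3 and Cdkn2c probes also cross.

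Cdkn2c encodes p18INK4c. Its brightest probe read 9.78 in cKO1, 8.31 and 8.60 in cKO2 and 8.22 in pcKO1 with GFP, and 9.27, 8.22, 8.24 and 8.50 with Cre. Both cKO1 arrays lay above the other 6. The cKO2 line was 2.27-fold and pcKO1 2.24-fold below cKO1, with adjusted p-values of 0.0036 and 0.00592. The second probe, near background with line means of 7.16, 7.41 and 6.57 in the same order, did not show the gap between cKO1 and cKO2. Its own line test passed (adjusted p = 0.00807), with pcKO1 the lowest line. By this probe pcKO1 differed from cKO1 by -0.59 ± 0.16 (adjusted p = 0.026) and from cKO2 by -0.84 ± 0.16 (adjusted p = 0.00826). By the brightest probe pcKO1 and cKO2 were level, at 0.02 ± 0.21. The INK4 transcripts measured thus had the same line at the top only in part: cKO1 led for the brightest Cdkn2c probe and for the second Cdkn2a probe, and stood with pcKO1 for Cdkn2b and the brightest Cdkn2a probe.

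Cdkn1b encodes p27, a CIP/KIP inhibitor that acts mainly on cyclin E with CDK2 and is controlled largely through protein turnover. It was measured poorly: 1 of its 3 probes passed, above background on 1 GFP array and 2 Cre arrays, with values from 6.18 to 6.81. The line test did not pass (adjusted p = 0.0899), and the values lie close to those of undetected probes.

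Rb1 encodes Rb, the substrate of the cyclin D kinases. It read 7.91 in cKO1, 8.61 and 8.81 in cKO2 and 8.71 in pcKO1 with GFP, and 8.05, 8.77, 8.85 and 8.65 with Cre. Both cKO1 arrays lay below the other 6. The cKO2 line exceeded cKO1 by 0.78 ± 0.17, or 1.72-fold (adjusted p = 0.00752), and pcKO1 exceeded it by 0.70 ± 0.17, or 1.63-fold (adjusted p = 0.0166, and 0.0587 without cKO2). The second Rb1 probe had the same order for cKO1, with 7.20 against 7.63 and 7.40, and did not pass alone (adjusted p = 0.134).

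Counted by pair of lines, the cKO2 line was below cKO1 for 3 of the 8 genes, all INK4 inhibitors, against 18.4% of all genes, and above it for Rb1 alone, against 19.3%. The pcKO1 line was above cKO1 for Ccnd1, Ccnd3 and Rb1, against 15.3%, and below it for Cdkn2c, against 13.8%. The pcKO1 line was above cKO2 for Ccnd1, Cdkn2a and Cdkn2b, against 9.8%, and below it for 0 genes, against 9.97%. The median size of the gap over the 8 genes was 0.64 for cKO2 and cKO1, 0.57 for pcKO1 and cKO1 and 0.45 for pcKO1 and cKO2, and over all genes it was 0.37, 0.32 and 0.27. Without cKO2, 3 of the 8 differed between the remaining lines, Ccnd1, Ccnd3 and Cdkn2c, against 21.7% of all genes in that fit.

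The comparison of Cre with GFP cannot tell loss of H3f3b from an effect of Cre itself, since no culture without floxed alleles received Cre. In pcKO1 the level of H3f3b was only 4.50-fold lower, the least fall of the 3 lines. The question read here is whether Cre, with the fall of H3f3b, moved the G1 regulators. Over the 3 lines none passed, and 0 of the 8 had an unadjusted p under 0.05, as 312 of all 8488 genes did. The nearest was Ccnd2, at -0.37 ± 0.16, with a 95% interval from -0.74 to 0.01, an unadjusted p of 0.0548 and an adjusted p of 0.967. The intervals reach down to -0.76 for Ccnd1, -0.70 for Cdkn2b and -0.55 for Cdkn2c, so falls within them are not excluded. With 3 lines the adjusted test was weak. It did not call even the targeted gene H3f3b, at -4.20 ± 0.51 (adjusted p = 0.188 in limma). H3f3b had the lowest unadjusted p of all genes in that fit, 3.0e-05. Its difference varied more between the lines (SD 1.76) than that of any of the 8, of which Ccnd1 varied most (SD 0.61). Its missed call therefore does not show how weak the test was for the 8. The intervals were -0.29 to 0.36 for Ccnd3, -0.48 to 0.47 for Cdkn2a, -0.18 to 0.43 for Cdkn1b and -0.26 to 0.37 for Rb1.

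Within the lines, 7 of the 8 had differences of mixed sign, against 74.3% of all genes. In the cKO1 line, 7 of the 8 were lower with Cre, all but Rb1, against 52.4% of all genes, with a median of -0.46 against -0.03 over all genes. In cKO2, 4 of the 8 were lower, against 48.5%, with a median of 0.01. In pcKO1, 5 of the 8 were higher, against 48.9%, with a median of 0.27 against -0.01 over all genes. With 1 culture per line and arm these differences carry no test of their own.

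Cyclin D1 spanned the widest range. Its Cre minus GFP difference was -0.93 in cKO1, a 1.91-fold lower level, -0.31 and -0.22 in the cKO2 pairs and 0.29 in pcKO1. All 3 probes gave a lower level in cKO1 (-0.93, -0.67 and -0.74) and a higher one in pcKO1 (0.29, 0.41 and 0.32). With pcKO1, the line of opposite sign, left out, the Ccnd1 difference was -0.60 (adjusted p = 0.0428 in limma). That fit had 1 residual degree of freedom and called 69 of all 8488 genes, so the call says little about Ccnd1. Without cKO1 the Ccnd1 difference was 0.01. Cyclin D2 was the 1 gene lower in all 3 lines, at -0.75, -0.03 and -0.31, as 13.2% of all genes were. Cyclin D3 differed by -0.30, 0.06 and 0.34, and its second probe, which ranked the lines the other way, gave -0.33, -0.04 and 0.33 for the same contrast.

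Among the inhibitors, Cdkn2b was 1.79-fold lower with Cre in cKO1, at -0.84, and differed by 0.12 and 0.03 in the cKO2 pairs and by -0.09 in pcKO1. Cdkn2c differed by -0.52, -0.22 and 0.28. Cdkn2a by its brightest probe differed by -0.41 in cKO1, -0.07 and -0.46 in the cKO2 pairs and 0.67 in pcKO1, the last a 1.59-fold higher level. Its second probe gave -0.12, -0.31 and 0.01, so the higher level in pcKO1 was seen by 1 of the 2 probes. Cdkn1b differed by -0.09, 0.21 and 0.25 and Rb1 by 0.14, 0.10 and -0.07.

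A 1.5-fold lower level with Cre in cKO1 was reached by 3 of the 8, Ccnd1, Ccnd2 and Cdkn2b, against 7.92% of all genes. A 1.5-fold higher level in pcKO1 was reached by Cdkn2a alone, against 1.7%. The cKO1 pair of arrays also differed for fibroblast markers, whose summed level was 39816 with GFP and 31989 with Cre, 5 of its 9 tested markers being lower with Cre and 3 higher, and the part of this in the cKO1 differences was not tested. In pcKO1, where Cdkn2a and Ccnd1 read higher with Cre, H3f3b was 4.50-fold lower, the least of the 3 lines, and the summed macrophage markers were 10998 with GFP and 8183 with Cre, whose part was not tested either.

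**Figure D3:**
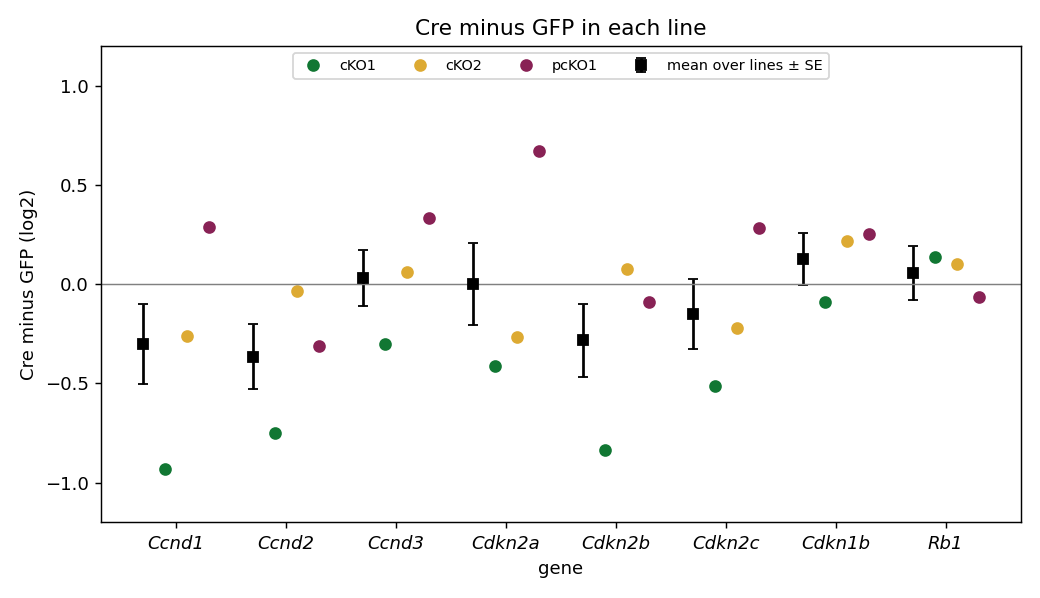
Cre minus GFP in log2 units for the 8 tested G1 regulators, with the mean over the 3 lines and its SE as black squares and the lines as coloured points (cKO2 is the mean of its duplicate pairs). The cKO1 point is the lowest of the 3 for 7 genes and reaches -0.93 for Ccnd1, while the pcKO1 point is the highest for Ccnd1, Ccnd3, Cdkn2a, Cdkn2c and Cdkn1b.

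The genes around this group were read from lists of 10 kinds. In none of them did a gene pass the test of Cre against GFP. The inhibitor Cdkn1a, which encodes p21 and is a main target of p53, set the lines apart most: its mean level was 8.29 in cKO1, against 13.01 in cKO2 and 12.86 in pcKO1. Line means from here on are given in the order cKO1, cKO2, pcKO1. That is 26.4-fold and 23.9-fold above cKO1, with adjusted p-values of 1.01e-06 and 2.5e-06. Of the 4 tested genes of the ARF and p53 list, 3 were higher in cKO2 and in pcKO1 than in cKO1, against the 19.3% and 15.3% of all genes given above. Beside Cdkn1a these were Ccng1, a p53 target, at 9.77, 13.14 and 13.19, and Mdm2, which degrades p53 and is bound by p19ARF, at 9.56, 11.69 and 12.10. The fourth, Npm1, a nucleolar partner of p19ARF, did not differ beyond the spread (adjusted p = 0.421) and its Cre minus GFP difference was 0.54 in cKO1 and -0.37 in pcKO1.

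The line cKO1, high for the brightest Cdkn2c and the second Cdkn2a probe and low for Cdkn1a and Rb1, was also the highest for the E2F target genes of DNA replication. All 14 tested genes of that list, of 20, were lower in cKO2 than in cKO1, against the 18.4% of all genes given above, and 12 were lower in pcKO1, against 13.8%. Mcm5, a subunit of the replicative helicase, read 11.77, 8.86 and 10.06, and Tk1, thymidine kinase, read 10.27, 7.67 and 9.14. With Cre, 14 of 14 were higher in cKO1, against 47.5% of all genes, with a median of 0.46. In cKO2, 13 were lower, against 48.5%, with a median of -0.42, and in pcKO1 14 were lower, against 50.9%, with a median of -0.48. The G1 regulators, a list that mixes cyclins with their inhibitors and Rb, had medians of -0.46, 0.01 and 0.27. In cKO1 and pcKO1 these had the other sign from the E2F targets, while in cKO2 the median was near 0, with 4 of the 8 lower. A median over such a mix gives no direction of the pathway. A relation between the lists was not tested. Rrm2, a ribonucleotide reductase subunit, went from 1.01 in cKO1 to -0.64 in pcKO1. Tk1 had an unadjusted p of 0.046 for Cre against GFP, at -0.45.

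**Figure D4:**
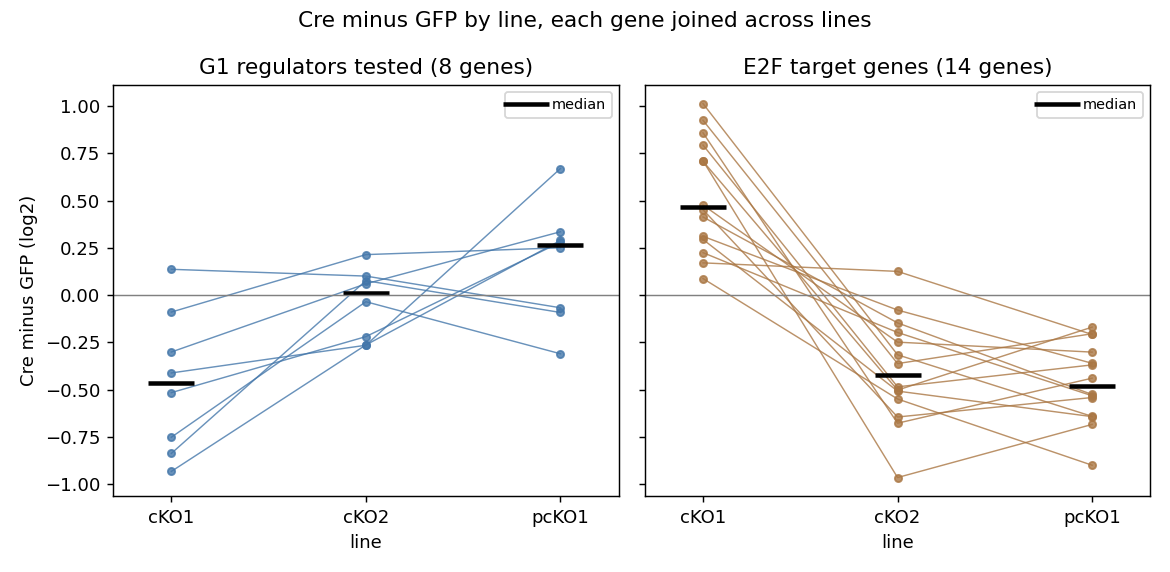
Cre minus GFP in log2 units in each line for the 8 tested G1 regulators (left) and the 14 tested E2F target genes (right), each gene joined across the lines, with black bars at the medians. The medians run from -0.46 in cKO1 to 0.27 in pcKO1 on the left and from 0.46 to -0.48 on the right.

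Of the other pathway genes, the cyclin E kinase Cdk2 read 10.80, 9.47 and 9.75, and its cyclin Ccne2 read 8.14, 6.74 and 6.67. Ccne2 was higher by 0.99 with Cre in cKO1 and differed by -0.01 and -0.03 in the other two. Among 7 tested E2F and DP factors, 4 passed as lower in cKO2 than in cKO1, against 18.4% of all genes: E2f1, E2f3, E2f6 and Tfdp1. Higher in cKO2 were 0 of the 7, against 19.3%. E2f6, a repressor, stood at 10.10, 8.95 and 10.19, and E2f3 at 8.59, 7.47 and 7.63. Mybl2, a MuvB partner in proliferating cells, was at 8.77, 6.71 and 6.93, and Lin54, a MuvB subunit, at 9.40, 8.67 and 8.47. E2f5, a factor that works with the pocket proteins, differed by -0.77 with Cre in pcKO1 and by 0.09 and 0.14 in the other lines.

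The remaining inhibitors and pocket proteins gave 2 of 4 tested genes that differed between lines, near the 44.7% of all genes, Cdkn1a and Cdkn2d, the gene for p19INK4d, at 8.14, 7.35 and 7.19. The lowest p-values of the lists for Cre against GFP, unadjusted, were here. In limma, Rbl1, which encodes the pocket protein p107, gave -0.56 with an unadjusted p of 0.0141 and Cdkn1c, which encodes p57, gave -0.44 with 0.0211, and neither passed after adjustment. Rbl1 lay at 6.51 to 6.88, near background. Of 12 tested regulators of INK4 and ARF transcription, 7 differed between lines by the F test that called 44.7% of all genes. Id1, an inhibitor of helix-loop-helix factors known to hold down p16, read 10.69, 8.19 and 9.96. Ezh2, the Polycomb methyltransferase that silences the locus, read 8.64, 7.34 and 6.71, and Ring1, of Polycomb complex 1, differed by -0.98, -0.04 and 0.32 with Cre.

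Of 5 tested mitogen-response factors, all 5 differed between lines by that test. Fos read 7.80, 10.04 and 9.60, and Egr1 read 11.19, 12.94 and 12.75. Fos differed by -0.90 with Cre in cKO1 and by 0.23 and 0.28 in the other lines, and Fosl1 differed by 1.01, 0.15 and -0.44. Of 7 tested genes for turnover of G1 regulators, 1 differed by it, Skp2, the ubiquitin ligase subunit that degrades p27, at 8.17, 7.27 and 7.20. Fbxw7, which degrades cyclin E, read 6.91, 7.50 and 7.24, and Cul1 differed by 0.51 with Cre in pcKO1. Mnat1, the 1 tested subunit of the CDK-activating kinase, read 9.86 in cKO2 and 9.42 in pcKO1, the latter below cKO1 by a difference of -0.58 (adjusted p = 0.029).

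Across the 6 means of line and arm, the tested genes most like Ccnd1 by Pearson correlation were Cxcl15 (0.99), Tpcn2 (0.99) and Flt1 (0.99), and those most like Ccnd2 were Adam6a (0.98), Il22ra2 (0.98) and Zfp280b (0.98). Gm2a (0.99), Slc25a12 (0.99) and Sfrp2 (0.98) were most like Cdkn2a, and AU040320 (0.995), Slc25a39 (0.99) and Tmem119 (0.99) were most like Cdkn2b. With 6 points that share lines and 8488 genes to choose from, these values are descriptions.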

How the data were processed

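Total RNA was labelled as biotin cRNA and read on 8 arrays of the Illumina MouseRef-8 BeadChip type. The authors summarised probe intensity with GenomeStudio, and the deposited sample-named intensity values have the same mean on every array. A second deposited table holds signal intensity with a detection p-value per probe, and its columns name the arm and a culture that the labels do not tie to a line, so it served for the detection filter and for 1 alternative without pairing (neqc). The sample-named values were background-corrected (normexp, offset 50), quantile-normalised and put on the log2 scale in limma 3.58.1 (R 4.3.3). Of 25697 probes, 11152 passed the filter, which asked 3 or more of the 8 arrays for a detection p-value below 0.05. The brightest probe stood for a gene, which left 8488 genes, 639 of them probes with no symbol. Mean signal per array was 435 to 623 (GFP) and 341 to 626 (Cre), and the number of arrays limits the precision.

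Line and arm were fitted to 6 values, the cKO2 duplicates being averaged, with eBayes and an intensity trend (2 residual and 6.31 prior degrees of freedom) and Benjamini-Hochberg adjustment. Cre and GFP cultures of a line deviated together (r of 0.82, 0.92 and 0.75 over genes), and the line is the pairing in the labels. All 10 genes and all their probes are described. From each of 10 other lists come the 2 genes with the widest range of Cre minus GFP over lines and the 2 with the widest range of line means, and for 4 genes the 3 genes most correlated with each. Genes outside that rule (Mdm2, Tfdp1, E2f1, Col2a1, Thy1, Vim, S100a4, Col1a1, Fcer1g, Lyz2, Ptprc) were named after their values were seen. The genes and lists were chosen with earlier results of these data known. Alternatives covered background correction, normalisation, filter, probe choice, duplicates, line term, trend, each line left out and the second table. No genome was given, and promoter windows came from a RefSeq table (GRCm38.p6), matched by symbol for 7 of the 10 genes.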

Additional observations from a re-analysis of the deposited data

Results flagged for a closer look

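For 7 of the 8 tested genes the Cre minus GFP difference had opposite signs in different lines, as it did for 74.3% of all genes, and none of these line gaps could be tested with 1 culture per line and arm. The gap between the highest and the lowest line was 1.22 for Ccnd1 (pcKO1 over cKO1), 1.08 for Cdkn2a (pcKO1 over cKO1), 0.91 for Cdkn2b (cKO2 over cKO1), 0.80 for Cdkn2c (pcKO1 over cKO1), 0.64 for Ccnd3 (pcKO1 over cKO1), 0.34 for Cdkn1b (pcKO1 over cKO1) and 0.20 for Rb1 (cKO1 over pcKO1), all in log2 units. Ccnd2, lower in all 3 lines, was the exception. The second Cdkn2a probe and the brightest disagree on the size of that gene's gap, as given above.

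Among the 4 arrays of an arm, 1 array stood far from the rest in 2 of 16 sets by Dixon's ratio. The cutoff is one that chance exceeds in about 1 of 20 sets of 4 independent values. The pcKO1 array stood apart for Ccnd1 with Cre, where its gap was 0.91 of the range, and for Ccnd3 with GFP, where its gap was 0.88 of the range. Since 2 of the 4 arrays are duplicates of cKO2, these sets hold 3 lines and not 4, and that rate does not apply to them. The arrays of a set also come from different lines, so the ratio carries the line differences given above.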

How the results depend on the processing

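No member passed the test of Cre against GFP in any fit of all lines. With 1 line left out, 0 to 1 did, and without pcKO1 it was Ccnd1 (-0.597). The number of all genes called was 0 in the main analysis, 1 with median scaling, 3 on the deposited values as they stand, 1 with no filter, 5 with the duplicates as separate pairs and 3 to 100 with 1 line left out, where 1 residual degree of freedom remains. Without the line term (no replicate block) and with the second table, 0 genes were called. Ccnd2 had an unadjusted p under 0.05 with median scaling, the deposited values, no filter and the duplicates as separate pairs. Of the fits of all lines with a line term, the F test called 6 members in each except the mean of passing probes, which lost Ccnd3 (5), and the separate duplicates, which added Cdkn1b (7). Of all genes it called 3795 in the main fit and 3810 with the mean of passing probes. With the separate duplicates, which count the cKO2 pair as independent, it called 5277, so the added member comes with a general rise in calls. With 1 line left out it called 3 to 5 members and 1838 to 3739 genes.

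Of 116 alternative values of Cre minus GFP for the members, 103 kept their direction and side of the threshold, 1 passed it and 12 changed sign, none past the threshold. With 1 line left out, Ccnd1 ranged from -0.597 to 0.0132 (without cKO1), Ccnd3 from -0.12 (without pcKO1) to 0.20, Cdkn2a from -0.338 (without pcKO1) to 0.203 (without cKO1), with 0.129 without cKO2, and Cdkn2c from -0.367 (without pcKO1) to 0.0307 (without cKO1). Ccnd3 gave -0.057 with median scaling, -0.0176 on the deposited values and -0.0134 by its second probe. Cdkn2a gave 0.00188 with no background correction and 0.0242 with cyclic loess. Cdkn2c gave 0.0838 by its second probe, and Rb1 gave -0.0169 with median scaling. Of 119 alternative values of the 11 called line gaps, 108 held. The call was lost in 9: with the mean of passing probes for Ccnd1 and Ccnd3 (pcKO1 minus cKO1), Cdkn2c (cKO2 minus cKO1) and Rb1 (pcKO1 minus cKO1), with median scaling for Cdkn2a (cKO2 minus cKO1), by the second probe for Cdkn2a (pcKO1 minus cKO2) and both Rb1 gaps, and without cKO2 for Rb1 (pcKO1 minus cKO1). The other 2 changed sign, Ccnd3 in pcKO1 minus cKO1 (-0.38) and Cdkn2c in cKO2 minus cKO1 (0.26), both by the second probe. The probe alternatives were chosen after seeing the data, and the cause of these changes was not tested.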
